A study of Mus musculus with 10 samples.

Results

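The genes described here are 31 liver genes of cholesterol and isoprenoid synthesis and of sterol trafficking. They were taken by symbol from the deposited gene table, in which all 31 were present among 17359 genes, and all 31 passed the filter on low counts with 12789 genes in all. They comprise 7 enzymes of the mevalonate pathway, 3 that lead from squalene to lanosterol, 9 that lead from lanosterol to cholesterol, 5 of the isoprenoid branches, and 7 genes of sterol trafficking, esterification and export. Not every enzyme of the pathway is reported here.

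The livers came from mice on a high-fat diet, a diet that induces obesity, and each library is RNA enriched for poly(A) tails and sequenced without strand. Intake was reduced by 50% on day 1 of a weekly cycle, by 70% on days 2 to 3 and by 50% on day 4, and was free on days 5 to 7. The groups were ad libitum controls on the same diet (AL, n = 3), restricted mice at day 3 of the cycle (LC, n = 4) and refed mice of the same regimen at day 7 (RF, n = 3). The sources used here do not give strain, age, sex or the hour of collection, nor whether each library is 1 mouse, so p-values measure the spread between these libraries.

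Cholesterol is built from acetyl-CoA through mevalonate, the isoprene units, farnesyl diphosphate, squalene and lanosterol. The liver raises transcription of nearly all of these enzymes when sterol in the endoplasmic reticulum is low, through the factor SREBP-2, and stores, exports or excretes the surplus as cholesteryl ester, lipoprotein and bile sterol. Branches of the same pathway supply prenyl groups, dolichol for protein glycosylation and the side chain of coenzyme Q.

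Promoter sequence is shown for Ebp, Sc5d, Lbr and Abcg5, as examples among the genes called below, to show the short motifs that were searched in all members. The windows were RefSeq's, from 250 bases before to 50 after each start, in build GRCm38.p6, and 25 of the 31 genes had at least 1. The stretches of Ebp (chrX:8193513-8193662), Sc5d (chr9:42264301-42264450) and Lbr (chr1:181842402-181842551) are the 150 bases before the start, on the minus strand. That of Abcg5 and Abcg8 (chr17:84683012-84683120, plus strand) is the 109 bases between the opposed starts used here, although the annotated gene models overlap. Capitals mark a match to the NF-Y box CCAAT, the GC box GGGCGG or the E-box CACGTG on either strand.
Ebp: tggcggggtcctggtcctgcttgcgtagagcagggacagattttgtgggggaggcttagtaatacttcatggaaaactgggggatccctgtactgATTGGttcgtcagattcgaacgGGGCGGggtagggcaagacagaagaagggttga
Sc5d: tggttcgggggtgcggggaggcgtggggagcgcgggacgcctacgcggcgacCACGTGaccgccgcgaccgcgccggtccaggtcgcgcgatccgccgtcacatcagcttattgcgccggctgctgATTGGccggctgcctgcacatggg
Lbr: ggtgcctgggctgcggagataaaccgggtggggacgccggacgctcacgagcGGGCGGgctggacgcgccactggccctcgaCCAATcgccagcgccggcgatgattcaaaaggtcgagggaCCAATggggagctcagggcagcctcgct
Abcg5 to Abcg8: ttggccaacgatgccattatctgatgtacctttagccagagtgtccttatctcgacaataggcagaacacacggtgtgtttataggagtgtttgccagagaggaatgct
CCAAT was present in 22 of the 25 genes with a window (88.0%), against 43.1% of the 10239 tested genes with one. GGGCGG was present in 20 of 25 (80.0%), against 66.4%. CACGTG was present in 4 of 25, against 11.6%, namely in Dhcr7, Dhdds, Hsd17b7 and Sc5d. The sterol regulatory element, searched as TCACNCCAC, was present in Hmgcs1 alone of the 25 genes, against 1.45% of tested genes. It read TCACCCCAC, starting 137 bases before the start. Only this pattern was sought, so other forms of the element would be missed. Fdps, Fdft1, Sqle, Soat2, Npc1 and Stard4 had no window and were not searched. Both strands were searched, and no matches of different motifs overlapped in these windows. The stretch between Abcg5 and Abcg8 held none of these 4 motifs, although the longer windows of both genes held CCAAT. A match is a run of letters and no evidence of binding.

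Library totals lay between 13871533 and 15899479 expected counts. Levels are given as counts normalised to library size (CPM), with libraries in the order of their replicate numbers (2 to 4 for AL, 1 to 4 for LC, 1 to 3 for RF), and as FPKM, which is also corrected for transcript length, where genes are compared. Hepatocyte markers were abundant, and the sum of 10 such genes spanned 85587 to 108746 CPM for AL, 62908 to 71830 CPM for LC and 82232 to 89699 CPM for RF. Of these 10, 6 fell at LC against AL and 4 rose at RF against LC. Beside these and the next counts, 16% of all tested genes rose and 15.6% fell at LC against AL. At RF against LC 11.4% rose and 10.7% fell. Of 8 markers of sinusoidal endothelium 4 rose at LC, and 2 fell and 1 rose at RF against LC, their sum spanning 182 to 202 CPM for AL, 289.6 to 314 CPM for LC and 238 to 281 CPM for RF. Of 8 macrophage markers 2 fell at LC and 2 rose at RF against LC, with sums of 116 to 161, 95.6 to 155 and 124 to 164 CPM in the same order. Of 8 stellate cell markers 1 fell at LC and 5 rose at RF against LC (Lrat, Dcn, Col1a1, Col3a1 and Rgs5), with sums of 179 to 193, 143 to 186 and 230.0 to 268 CPM. The cholangiocyte marker Epcam, 1 of 5 tested, rose at LC. Of 4 adipocyte markers only Cfd could be tested, and it fell at LC against AL (−3.53, SE 0.66, adjusted p = 0.00552), with values of −5.61, SE 0.85, adjusted p = 0.109 at RF against AL. Adipoq and Plin1 were too low to test and Lep was not in the table, and the sum of the 3 in the table, Cfd included, spanned 49.5 to 142 CPM for AL, 2.83 to 18.6 CPM for LC and 1.47 to 3.2 CPM for RF. The part of these shifts in the results below was not tested, and fewer cells of a type cannot be told apart from less RNA per cell.

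Most of the sterol synthesis enzymes differed between libraries of the same group more than most genes did, and most were lowest or highest in the same libraries. AL replicate 2 had the lowest level of the 3 AL libraries for 19 of the 19 enzymes from Acat2 to Dhcr7. LC replicate 3 had the lowest of the LC libraries for 17 of 19, the exceptions being Hsd17b7 and Sc5d, lowest in LC replicate 4. RF replicate 2 had the highest of the RF libraries for 19 of 19. The highest AL library was replicate 4 for 16 enzymes and replicate 3 for 3. The highest LC library was replicate 2 for 14 and replicate 1 for 5 (Mvd, Fdps, Lss, Lbr and Nsdhl). The median within-group SD of the 19 enzymes on the log2 scale was 0.64 at AL, 0.85 at LC and 0.46 at RF, against 0.21, 0.22 and 0.17 over all tested genes. Lbr lay below these all-gene medians in every group (0.04, 0.19 and 0.08). So did Ebp at LC and RF (0.14 and 0.08) and Sc5d at AL (0.166). The 5 isoprenoid branch genes had medians of 0.13, 0.20 and 0.09, and the 7 trafficking genes 0.16, 0.23 and 0.14.

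As a mean log2 distance from each gene's AL mean, the 19 enzymes stood at −0.75, 0.29 and 0.46 in AL replicates 2, 3 and 4. The LC libraries 1 to 4 stood at −0.10, 0.23, −1.41 and −0.75, and the RF libraries 1 to 3 at 0.68, 1.17 and 0.20. LC replicates 1 and 2 lay within the AL range, LC replicate 4 at its lower end and LC replicate 3 below it, and RF replicates 1 and 2 lay above every AL and LC library while RF replicate 3 did not. The enzymes of 1 library share its RNA, so these are not 19 independent observations.

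**Figure D1:**
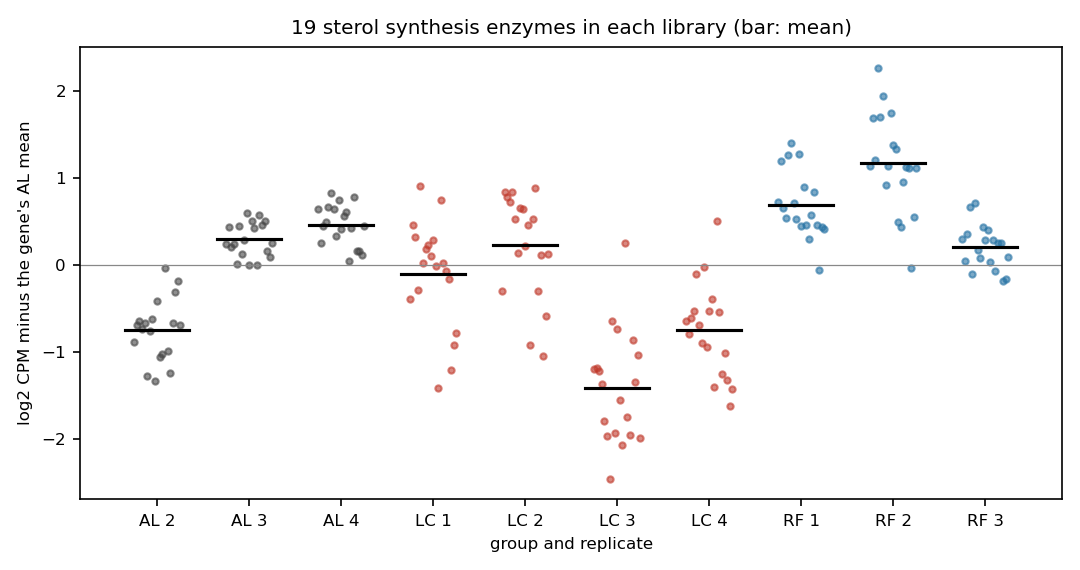
Each point is 1 of the 19 sterol synthesis enzymes in 1 library, as log2 CPM minus that gene's mean over the AL libraries (vertical axis), and the bar is the mean of the 19; libraries are along the horizontal axis. The bars run from −1.41 in LC replicate 3 to 1.17 in RF replicate 2, and AL replicate 2 lies at −0.75.

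LC against AL addresses what restriction changed on an unchanged diet. Fold changes are log2, positive where the group named first was higher, and a gene is said to have risen or fallen where its adjusted p was below 0.05. Soat2 and Abcg5, whose products esterify and export sterol, rose, and so did Lbr. The late synthesis enzymes Tm7sf2, Ebp and Sc5d fell, and so did Nus1 and Dhdds, which encode both subunits of the enzyme that builds dolichol chains. These 3 higher and 5 lower genes of 31 (9.68% and 16.1%) are set against 16% of all tested genes called higher and 15.6% called lower, so the share higher was below the background and the share lower near it. The other 23 had log2 fold changes of −0.94 to 0.19 and adjusted p of 0.0709 to 0.985 by edgeR's quasi-likelihood test. The median of the 31 was −0.27, against 0.05 for all tested genes. When libraries were scaled by their totals only, the all-gene median shifted upward by 0.31 and the median of the 31 became 0.038. The calls among the 31 were then 4 higher and 3 lower, against 4395 higher and 686 lower of all 12789 tested genes. With the first scaling, 2045 and 1989 of all tested genes were called. Without AL replicate 2 the calls among the 31 were 3 higher and 7 lower, against 2186 and 2167 of 13014 tested genes. Without LC replicate 3 they were 3 and 5, against 1855 and 1759 of 12685. Without AL replicate 3 they were 2 and 3, against 959 and 1151 of 13008.

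RF against LC addresses what refeeding changed within the regimen. Acat2, Tm7sf2, Ebp, Sc5d and the sterol carrier gene Stard4 rose, and Soat2, Abcg5 and Npc1 fell. The 5 higher genes (16.1%) are set against 11.4% of all tested genes, and the 3 lower (9.68%) against 10.7%. Of the 19 synthesis enzymes 4 rose and none fell, with a median log2 fold change of 1.13 against −0.02 for all genes, and 15 did not pass. With all libraries, 1452 genes were called higher and 1369 lower of 12789 tested. Without RF replicate 2 the calls among the 31 were 3 higher and 3 lower, against 792 and 643 of 12961 tested genes. Without LC replicate 3 they were 5 and 3, against 1288 and 1273 of 12685. Without LC replicate 2 they were 9 and 3, against 1397 and 1250 of 12747. DESeq2 called 10 of the 31 higher and 3 lower, against 1610 and 1509 of 13094. For voom with sample weights they were 8 and 3, against 1762 and 1676 of 12789. This comparison uses the LC libraries of the comparison before it, so the 2 are not independent.

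RF against AL addresses how refed livers stood next to livers of mice fed freely throughout. None of the 31 passed edgeR's test in either direction, where 0.0156% of all tested genes were called higher and 0.0391% lower (0.0547% in all). By that test 3 had an unadjusted p below 0.05, namely Lbr, Npc1 and Stard4. The share of all tested genes below that unadjusted level was not counted here. DESeq2 and voom with sample weights each called 1 gene of the 31, Npc1, as lower. Over all genes DESeq2 called 39 higher and 61 lower of 11772, and voom 20 and 30 of 12789. The 19 synthesis enzymes had a median log2 fold change of 0.58 against 0.01 for all genes, but their intervals were wide, as that of Idi1 from −0.43 to 2.81.

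**Figure D2:**
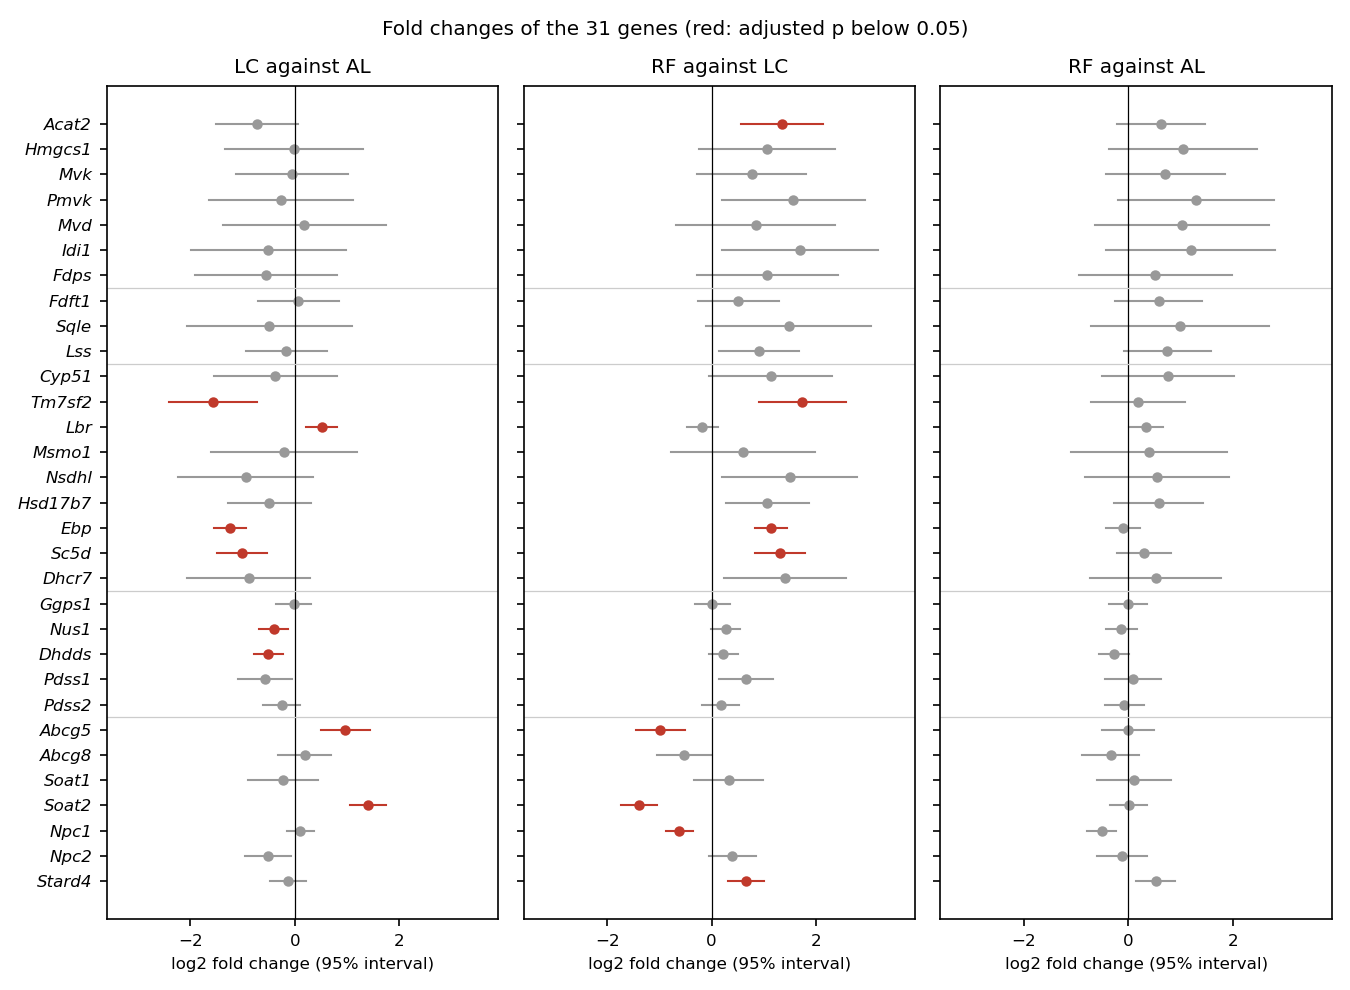
Log2 fold change (point) and 95% interval (line) of each of the 31 genes in the 3 comparisons, with thin lines between the 5 roles and red for an adjusted p below 0.05. Intervals of the mevalonate enzymes are wide and those of Ebp, Soat2 and Npc1 narrow, and no gene is red for RF against AL.

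Among the mevalonate enzymes, none of the 7 passed at LC against AL, and Acat2 alone passed at RF against LC. Of all tested genes, 31.5% and 22.1% passed there in either direction. Acat2 (NCBI gene 110460) encodes the cytosolic thiolase that joins acetyl-CoA units. Its level was 43.2, 94.0 and 125 CPM in AL, 60.8, 64.7, 34.8 and 51.1 CPM in LC, and 131, 175 and 97.9 CPM in RF, and the RF libraries lay above all LC libraries. The log2 fold change at RF against LC was 1.35 (SE 0.35, adjusted p = 0.0235), and that at LC against AL was −0.72 (SE 0.35, adjusted p = 0.144). The first call was lost without RF replicate 1 (adjusted p = 0.0591), RF replicate 2 (0.0881) or LC replicate 4 (0.0528). At LC against AL it was called by DESeq2 (−0.76, adjusted p = 0.048) and by edgeR's test without AL replicate 2 (−1.05, adjusted p = 0.0134). Acat3, a neighbouring paralog whose reads may be shared with Acat2, fell at LC (−0.68, SE 0.14, adjusted p = 0.00319) and rose at RF against LC (0.63, SE 0.14, adjusted p = 0.00772).

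Hmgcs1 encodes the synthase that makes HMG-CoA. It was at 257, 561 and 496 CPM in AL, 570.4, 739.9, 182 and 239.5 CPM in LC, and 945, 1334 and 428 CPM in RF. The highest and the lowest of the LC libraries span those of AL, and RF replicate 3 lay below all the AL libraries but replicate 2. Its log2 fold change at RF against LC was 1.06 (SE 0.57, adjusted p = 0.22). Idi1, whose product interconverts the isoprene units, was at 57.6, 190.1 and 248 CPM in AL, 141, 201, 35.7 and 86.2 CPM in LC, and 369, 534 and 228 CPM in RF. The RF libraries lay above every LC library, but LC replicates 2 and 3 differed 5.64-fold, and the fold change of 1.70 (SE 0.65, adjusted p = 0.0993) did not pass, although DESeq2 called it (adjusted p = 0.0486). Pmvk, the phosphomevalonate kinase gene, was at 22.3, 43.8 and 52.3 CPM in AL, 30.3, 61.0, 14.4 and 25.7 CPM in LC, and 53.7, 178 and 58.9 CPM in RF, with RF replicate 2 far above the others of its group. Its fold changes were 1.56 (SE 0.60, adjusted p = 0.0986) at RF against LC and 1.30 (SE 0.65, adjusted p = 0.512) at RF against AL, and the first was called without LC replicate 2 (adjusted p = 0.0477). Among the other 3, group means were 15.1, 14.5 and 24.6 CPM at AL, LC and RF for the mevalonate kinase gene Mvk. They were 26.3, 29.9 and 53.7 CPM for the decarboxylase gene Mvd, and 224, 153 and 321 CPM for the farnesyl diphosphate synthase gene Fdps. The 3 of them had adjusted p of 0.23 to 0.933 in the 3 comparisons.

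Of the enzymes from squalene to lanosterol, none of the 3 passed in any comparison. Of all tested genes, 31.5% passed at LC against AL, 22.1% at RF against LC and 0.0547% at RF against AL. Lss, which encodes the cyclase that closes the sterol rings, was at 49.0, 65.0 and 87.0 CPM in AL, 79.4, 76.0, 39.0 and 45.2 CPM in LC, and 89.0, 169 and 79.3 CPM in RF. Its fold change was 0.91 (SE 0.34, adjusted p = 0.0868) at RF against LC, where DESeq2 called it (0.91, adjusted p = 0.0165), and 0.75 (SE 0.37, adjusted p = 0.502) at RF against AL. Sqle, the squalene epoxidase gene and a rate-controlling step, was at 15.2, 58.0 and 64.2 CPM in AL, 41.3, 59.9, 10.017 and 19.9 CPM in LC, and 93.0, 128 and 51.9 CPM in RF. Its highest LC library had 5.98 times the level of its lowest, and its fold change at RF against LC was 1.48 (SE 0.68, adjusted p = 0.161). Fdft1, the squalene synthase gene, was at 212 ± 69.3 CPM at AL (SD, n = 3), 222 ± 79.4 CPM at LC (n = 4) and 318 ± 118 CPM at RF (n = 3). It overlaps the cathepsin gene Ctsb, and reads in the overlap cannot be assigned without strand. Ctsb fell at LC against AL (−0.93, SE 0.14, adjusted p = 0.000508) and rose at RF against LC (0.58, SE 0.14, adjusted p = 0.00986).

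Of the 9 enzymes from lanosterol to cholesterol, 3 fell and 1 rose at LC, and the same 3 rose at RF against LC. Of all tested genes, 15.6% fell and 16% rose at LC against AL, and 11.4% rose at RF against LC. The 9 are a part of the 31, of which 16.1% fell and 9.68% rose at LC. Ebp (NCBI gene 13595) encodes the isomerase that moves a ring double bond. It was at 278, 386 and 388 CPM in AL, 149.9, 168, 137 and 139 CPM in LC, and 332, 338 and 305 CPM in RF. All 4 LC libraries lay below every AL and RF library. The fold changes were −1.24 (SE 0.14, adjusted p = 0.000159) at LC against AL and 1.13 (SE 0.14, adjusted p = 0.000432) at RF against LC, and both passed in 21 of 21 alternatives tried. At RF against AL it was −0.11, with a 95% interval of −0.44 to 0.22. At LC its highest library had 1.23 times the level of its lowest.

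Sc5d (NCBI gene 235293) encodes the desaturase that introduces a ring double bond late in the pathway. Its level was 603, 729.7 and 742 CPM in AL, 364, 457, 334 and 223 CPM in LC, and 932, 1008 and 617 CPM in RF. All LC libraries lay below all others. The fold changes were −1.005 (SE 0.22, adjusted p = 0.0049) at LC against AL and 1.31 (SE 0.22, adjusted p = 0.0022) at RF against LC, again called in 21 of 21 alternatives. At RF against AL it was 0.30 (95% interval −0.21 to 0.81). On the length-corrected scale Sc5d and Ebp had the highest group means of the 31 at AL, 279 ± 27.6 and 210.3 ± 31.1 FPKM (SD, n = 3), and their AL ranges of 254 to 308 and 177 to 239 FPKM did not overlap. Fdps came next at 199.6 ± 90.0 FPKM, and its range of 116 to 295 FPKM overlapped both.

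Tm7sf2 (NCBI gene 73166) and Lbr (NCBI gene 98386) encode sterol reductases that can carry out the same step. Lbr is also a protein of the inner nuclear membrane that binds lamin and chromatin. Tm7sf2 was at 66.2, 181 and 206 CPM in AL, 50.7, 71.1, 32.042 and 51.0 CPM in LC, and 185, 190.5 and 138 CPM in RF. AL replicate 2 lay below LC replicate 2, so the AL and LC groups overlapped, and the RF libraries lay above all LC libraries. The fold changes of Tm7sf2 were −1.56 (SE 0.37, adjusted p = 0.0127) at LC against AL and 1.74 (SE 0.37, adjusted p = 0.0118) at RF against LC. The first was lost without AL replicate 3 (adjusted p = 0.0542) or AL replicate 4 (0.0529). The start of Tm7sf2 overlaps the end of Vps51, a gene of vesicle tethering, which had a fold change of −0.25 (SE 0.12, adjusted p = 0.117) at LC against AL.

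Lbr was at 12.5, 12.9 and 13.3 CPM in AL, 21.6, 18.6, 15.4 and 18.3 CPM in LC, and 15.9, 17.4 and 15.7 CPM in RF. Every LC library lay above every AL library. Its fold change was 0.52 (SE 0.14, adjusted p = 0.0132) at LC against AL, lost without AL replicate 3 (adjusted p = 0.0542), and 0.34 (SE 0.15, adjusted p = 0.434) at RF against AL. The ratio of Tm7sf2 to Lbr in FPKM does not depend on the scaling of a library. It was 14.1, 38.0 and 41.6 in AL replicates 2 to 4, between 5.59 and 10.2 at LC, and between 23.7 and 31.3 at RF. The LC ratios were below all others. This ratio was chosen after the values were seen and was not tested.

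The other 5 of this stretch did not pass edgeR's test. Nsdhl and Msmo1 encode enzymes that remove methyl groups at one ring carbon, and Hsd17b7 a ketoreductase of the same complex. Dhcr7 encodes a reductase of the last steps, and Cyp51 the demethylase that acts first on lanosterol. At RF against LC their fold changes were 1.49 for Nsdhl, 0.60 for Msmo1, 1.07 for Hsd17b7, 1.41 for Dhcr7 and 1.13 for Cyp51, with adjusted p of 0.059 to 0.514. Hsd17b7 was nearest to a call, at 41.1, 92.9 and 73.0 CPM in AL, 58.4, 70.4, 36.0 and 32.3 CPM in LC, and 89.7, 141 and 77.9 CPM in RF, and the RF libraries lay above all LC libraries. It passed in 6 of the alternatives, among them DESeq2 (adjusted p = 0.00529) and the compared groups alone (0.0468). Nsdhl was called higher at RF against LC by DESeq2 (adjusted p = 0.0495) and without AL replicate 2 (0.0485). Dhcr7 was called higher there by DESeq2 (0.0492), by voom with sample weights (0.0336) and without LC replicate 2 (0.0159), and lower at LC against AL without LC replicate 2 (0.0351).

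**Figure D3:**
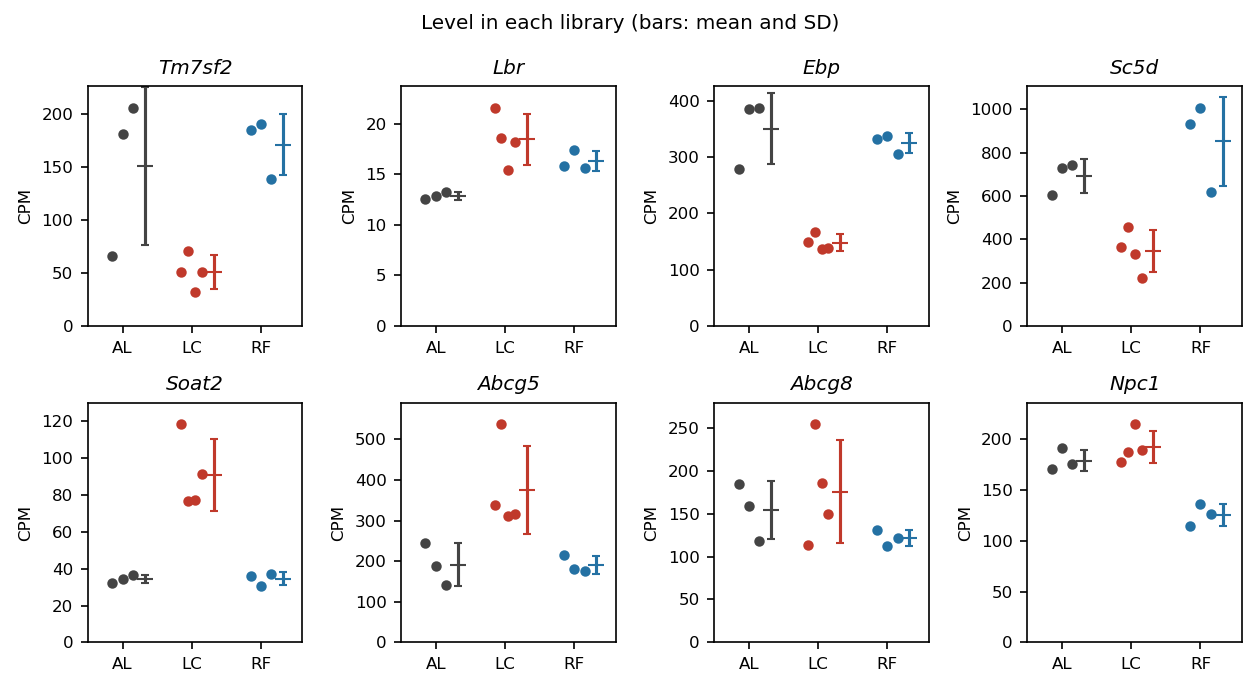
CPM (vertical axis, from 0) of 8 genes in each library, by group, with the mean and SD beside the points (AL and RF n = 3, LC n = 4). The LC points of Ebp, Sc5d, Soat2 and Abcg5 are clear of the other groups, those of Abcg8 overlap both, and for Npc1 the RF points lie lowest, at 114 to 136 CPM.

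In the isoprenoid branches Nus1 and Dhdds fell at LC against AL, where 15.6% of all tested genes fell. None of the 5 passed in the other comparisons, where 22.1% of all tested genes passed at RF against LC and 0.0547% at RF against AL. Dhdds (NCBI gene 67422), the catalytic subunit of the dolichol-chain synthase, was at 22.1, 21.1 and 21.1 CPM in AL, 15.4, 16.1, 12.7 and 16.1 CPM in LC, and 16.9, 17.2 and 18.999 CPM in RF. All LC libraries lay below all AL libraries, and the fold change was −0.51 (SE 0.13, adjusted p = 0.00955). Nus1 (NCBI gene 52014), its partner subunit, was at 48.3, 54.1 and 45.2 CPM in AL, 34.9, 31.2, 42.0 and 40.8 CPM in LC, and 42.3, 45.2 and 46.8 CPM in RF, a fold change of −0.40 (SE 0.13, adjusted p = 0.0291) with LC libraries again below AL. Both calls rest on the scaling. Under scaling by totals only neither passed, for Dhdds (−0.20, adjusted p = 0.258) or for Nus1 (−0.0809, adjusted p = 0.667). Nus1 was also lost without AL replicate 3 (adjusted p = 0.14), LC replicate 1 (0.0699) or LC replicate 2 (0.0651).

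The geranylgeranyl diphosphate synthase gene Ggps1 had group means of 12.8, 12.6 and 12.8 CPM at AL, LC and RF, which differed by less than their SD of 1.96 at AL and 1.89 at LC. Pdss1 and Pdss2 encode the 2 subunits of the synthase of the coenzyme Q side chain. Pdss1 was at 4.30, 4.21 and 4.69 CPM in AL, 2.57, 4.31, 2.8003 and 2.13 CPM in LC, and 4.27, 5.19 and 4.55 CPM in RF, a low level of 34 to 78 counts per library, and its end overlaps Abi1. Its fold changes were −0.57 (SE 0.24, adjusted p = 0.0815) at LC against AL and 0.66 (SE 0.24, adjusted p = 0.0609) at RF against LC, and both were called by voom with sample weights (adjusted p = 0.0282 and 0.0193) and without LC replicate 2 (adjusted p = 0.0129 and 0.0116). Pdss2 had group means of 10.1, 8.46 and 9.55 CPM.

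Of the 7 genes of sterol trafficking, esterification and export, Soat2 and Abcg5 rose at LC and fell at RF against LC. Npc1 fell and Stard4 rose at RF against LC, and Abcg8, Soat1 and Npc2 did not pass. Of all tested genes, 16% rose at LC against AL, and 10.7% fell and 11.4% rose at RF against LC. Soat2 (NCBI gene 223920) encodes the acyltransferase that makes cholesteryl ester in hepatocytes, and had the largest rise of the 31 at LC. It was at 32.035, 34.6 and 36.6 CPM in AL, 118, 76.6, 77.1 and 91.1 CPM in LC, and 36.2, 30.7 and 36.9 CPM in RF. All 4 LC libraries lay above every AL and RF library, and the AL and RF ranges overlapped. The fold changes were 1.40 (SE 0.16, adjusted p = 0.000159) and −1.39 (SE 0.16, adjusted p = 0.000223), each called in 21 of 21 alternatives. At RF against AL it was 0.00598 (95% interval −0.35 to 0.36).

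Soat1, the paralog found in many other cell types including macrophages, was low, with 1.48, 1.25 and 1.24 CPM for AL, 1.005, 1.05, 1.35 and 1.13 CPM for LC and 0.924, 1.46 and 1.87 CPM for RF, which is 13 to 28 counts per library. In FPKM, Soat2 exceeded Soat1 52.3-fold to 68.8-fold at AL, 134-fold to 289-fold at LC and 45.2-fold to 92.9-fold at RF. The LC ratios lay above all others. With so few Soat1 counts the ratio has a wide counting error, and it was not tested. It was not planned and draws on the same libraries as the call of Soat2, so it is no separate evidence.

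Abcg5 (NCBI gene 27409) and Abcg8 (NCBI gene 67470) encode the 2 half-transporters that together secrete cholesterol and plant sterols into bile, and are transcribed away from each other from the 109 bases shown above. Abcg5 was at 246, 187 and 142 CPM in AL, 338, 537, 311 and 316 CPM in LC, and 215, 181 and 175 CPM in RF. All LC libraries lay above all others. The fold changes were 0.97 (SE 0.22, adjusted p = 0.00593) at LC against AL and −0.98 (SE 0.22, adjusted p = 0.00864) at RF against LC, and −0.00929 (95% interval −0.51 to 0.49) at RF against AL. Abcg8 was at 185, 158 and 118 CPM in AL, 113, 254, 186 and 149.5 CPM in LC, and 131, 113 and 121 CPM in RF. Its LC libraries overlapped both other groups, with LC replicate 1 the lowest and LC replicate 2 the highest of the 4. The fold changes of Abcg8 were 0.19 (SE 0.23, adjusted p = 0.56) at LC against AL, with a 95% interval of −0.32 to 0.70, and −0.53 (SE 0.24, adjusted p = 0.126) at RF against LC. The second was called when only totals scaled the libraries (−0.73, adjusted p = 0.0338) and without LC replicate 1 (−0.70, adjusted p = 0.0347). It was also called by limma with log2(FPKM + 1) (−0.67, adjusted p = 0.0436) and log2(FPKM + 0.1) (−0.69, adjusted p = 0.0447).

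In FPKM the ratio of Abcg5 to Abcg8 was 1.98, 1.78 and 1.81 in AL replicates 2 to 4. It was 4.43, 3.15, 2.49 and 3.13 in LC replicates 1 to 4, and 2.45, 2.42 and 2.18 in RF replicates 1 to 3. The 3 groups did not overlap, with AL lowest and LC highest, though LC replicate 3 and RF replicate 1 differed by little. In the annotation the 2 gene models overlap, and reads in the overlap cannot be assigned without strand. This ratio was not planned either and draws on the same libraries as the call of Abcg5, so it is no separate evidence. The difference between the fold changes of the 2 genes was not tested.

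**Figure D4:**
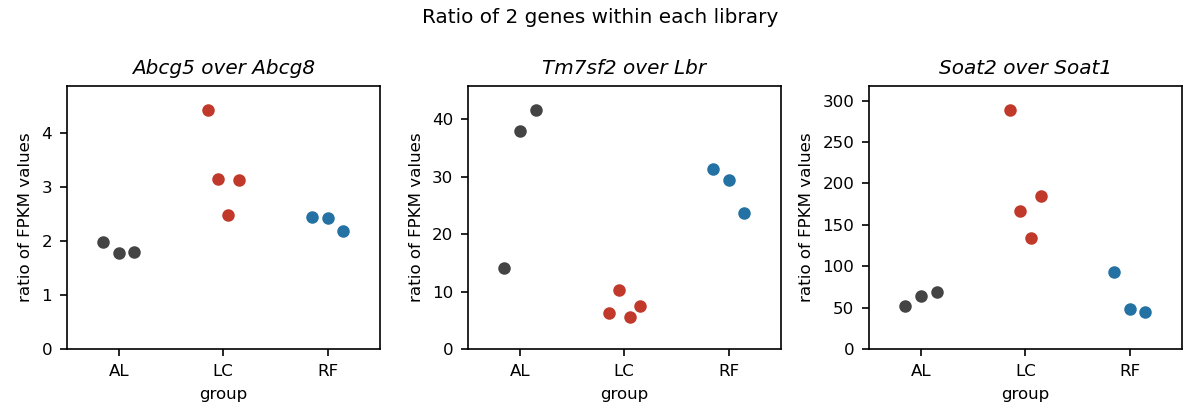
Ratio of the FPKM values of 2 genes within each library (vertical axes from 0), by group. For Abcg5 over Abcg8 the AL libraries lie at 1.78 to 1.98 and the LC libraries at 2.49 to 4.43, for Tm7sf2 over Lbr the LC libraries are lowest, at 5.59 to 10.2, and for Soat2 over Soat1 they are highest, at 134 to 289.

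Npc1 (NCBI gene 18145) encodes the membrane protein that moves cholesterol out of lysosomes. It was at 171, 191 and 175 CPM in AL, 178, 187, 214 and 189.7 CPM in LC, and 114, 136 and 126 CPM in RF. The RF libraries were the lowest 3 of the 10, and AL and LC overlapped. The fold change was −0.62 (SE 0.12, adjusted p = 0.00433) at RF against LC, called in 21 of 21 alternatives. At RF against AL it was −0.51 (SE 0.13, adjusted p = 0.21), called by DESeq2 (adjusted p = 0.01) and by voom with sample weights (0.0492). At LC against AL it was 0.10, and under scaling by totals only it was called higher (0.42, adjusted p = 0.0168). Npc1 overlaps Rmc1, whose fold change at RF against LC was −0.34 (SE 0.14, adjusted p = 0.0988).

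Npc2, the soluble partner that hands cholesterol to Npc1, was at 32.9, 48.5 and 68.4 CPM in AL, 30.1, 33.1, 32.6 and 43.8 CPM in LC, and 43.2, 50.3 and 44.5 CPM in RF. The highest AL library had 2.08 times the level of the lowest, and the fold change at LC against AL was −0.52 (SE 0.21, adjusted p = 0.0709). It was called as lower by DESeq2 (adjusted p = 0.0488), by voom with sample weights (0.0249) and without AL replicate 2 (0.00589) or LC replicate 4 (0.0399). Stard4 (NCBI gene 170459), a cytosolic carrier that shuttles sterol between membranes, was at 107, 133 and 125 CPM in AL, 109, 137, 99.5 and 100.2 CPM in LC, and 167, 214 and 145 CPM in RF. All RF libraries lay above all AL and LC libraries. The fold change was 0.65 (SE 0.16, adjusted p = 0.0117) at RF against LC and 0.52 (SE 0.17, adjusted p = 0.321) at RF against AL. The first was lost without RF replicate 2 (adjusted p = 0.0752).

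Other genes of the pathway were counted from 3 lists of 59 genes, all of which were tested. At LC against AL, 6 rose and 18 fell (10.2% and 30.5%, against 16% and 15.6% of all tested genes), with a median of −0.24 (0.077 under scaling by totals only). The all-gene medians were 0.048 and, under scaling by totals only, 0.36, so the 59 lay below all genes under both. At RF against LC, 14 rose and 5 fell (23.7% and 8.47%, against 11.4% and 10.7%), and at RF against AL none passed, against 0.0547% of all tested genes. Of 9 sterol-sensing genes none rose and 3 fell at LC (33.3%). Insig1, whose product holds SREBP in the endoplasmic reticulum and which is itself an SREBP target, was at 442, 486 and 366 CPM in AL, 351, 324, 229.9 and 315 CPM in LC, and 532, 705 and 543 CPM in RF. It fell at LC (−0.50, SE 0.17, adjusted p = 0.0353) and rose at RF against LC (0.96, SE 0.17, adjusted p = 0.00225), and all RF libraries lay above all others. Ubxn8, a factor of protein degradation from the endoplasmic reticulum, fell at LC (−0.67). Insig2, chosen after its values were seen, was at 239, 256 and 102 CPM in AL, 38.6, 80.3, 53.2 and 40.2 CPM in LC, and 97.5, 164 and 181 CPM in RF. It fell at LC (−1.90, SE 0.38, adjusted p = 0.0054) and rose at RF against LC (1.47, SE 0.37, adjusted p = 0.0221). Srebf2, which encodes SREBP-2 and was chosen likewise, had a fold change of −0.000391 (SE 0.18, adjusted p = 0.999) at LC against AL and 0.039 (SE 0.18, adjusted p = 0.9) at RF against LC.

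Of 23 other isoprenoid users 2 rose and 6 fell at LC (8.7% and 26.1%), the fall with the smallest p being that of Zmpste24, a protease of prenylated proteins (−0.71, SE 0.13, adjusted p = 0.00146). Of 27 genes listed as sterol carriers and liver X receptor targets 4 rose and 9 fell at LC (14.8% and 33.3%). Of all tested genes 16% rose and 15.6% fell there. The list of 27 also holds genes that are neither, such as the lysosomal membrane genes Lamp1 and Lamp2, which fell. The receptor gene Nr1h2, which rose, is likewise on it. At RF against LC 5 of the isoprenoid users rose and 2 fell (21.7% and 8.7%). Of the 27, 6 rose and 2 fell there (22.2% and 7.41%), against 11.4% and 10.7% of all tested genes. Mylip, a ubiquitin ligase gene and a known target of the liver X receptors, averaged 4.30 ± 0.399 CPM in AL (SD, n = 3) and 10.7 ± 2.55 CPM in LC (n = 4) and rose at LC, a fold change of 1.31 (SE 0.21, adjusted p = 0.000815). Gramd1a, a sterol transporter gene of membrane contact sites, rose too (0.91). The lysosomal membrane gene Lamp1 (−0.86) and the carrier gene Scp2 (−0.65) fell. At RF against LC, Zmpste24 (0.56), Ubxn8 (0.54), Scp2 (0.56) and Lamp1 (0.50) rose and Gramd1a fell (−0.57), and Mylip did not pass (−0.57, SE 0.20, adjusted p = 0.0527). Nr1h2, which encodes liver X receptor beta, rose at LC against AL (0.34, SE 0.12, adjusted p = 0.0449) and fell at RF against LC (−0.60, SE 0.12, adjusted p = 0.00507). The receptor targets Abca1 and Abcg1, named after their values were seen, did not pass in any comparison (adjusted p of 0.167 to 0.982).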

How the data were processed

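Polyadenylated liver RNA of 10 libraries was sequenced without strand, per the labels' protocols. The authors deposited expected counts (estimated, 10.9% of values not whole) and, in a second table, FPKM values for 17359 genes with NCBI numbers and symbols. The submitters' processing notes name HISAT, Bowtie2 and GRCm39, without saying what each did. The sources used here do not say which program counted the reads, or with which annotation.

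Rounded expected counts were filtered with filterByExpr (12789 genes kept) and scaled by trimmed means of M values (TMM). One model with a mean for every group was fitted to the 10 libraries in edgeR 4.0.16 (R 4.3.3, glmQLFit with robust dispersion), and contrasts were tested by its quasi-likelihood F test. Adjusted p-values are Benjamini-Hochberg over all genes tested, with calls below 0.05. CPM are counts scaled to TMM-adjusted totals. The SE of a log2 fold change is its size divided by the root of F, and intervals are 95%. Levels of different genes were compared in FPKM only. Alternatives used DESeq2 1.42.0, limma 3.58.1, other scalings and filters, and each library left out. The steps were tested on simulated counts.

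The members and lists were chosen with earlier results of these data known. Values in every library are given for genes called in any comparison and for the 6 with the smallest p in each, and for some others chosen after their values were seen. Of the other pathway genes the 8 with the smallest p were named.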

Additional observations from a re-analysis of the deposited data

Results flagged for a closer look

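LC replicate 2 stood apart from the other LC libraries for Abcg5, at 537 CPM against 311 to 338 CPM in the other 3. The gap to the nearest of them was 0.881 of the whole range, above Dixon's 95% critical value for 4 samples. The 31 genes were each examined in the LC group, and chance gives such a gap in about 1 in 20 groups. Without that library the log2 fold change of Abcg5 at LC against AL was 0.75, adjusted p = 0.00844, against 0.97 (SE 0.22, adjusted p = 0.00593) with it. Abcg8 was highest in the same library, at 254 CPM.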

How the results depend on the processing

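The 4 alternatives with library totals or FPKM values (library totals only, log2(FPKM + 1), log2(FPKM + 0.1) and log2(FPKM + 1) with no filter) gave 3 genes lower at LC than AL in place of 5, losing Nus1 and Dhdds, and 4 higher in place of 3, gaining Npc1. Over all tested genes these 4 called 4031 to 4395 higher and 667 to 715 lower at LC than AL, in place of 2045 and 1989. With library totals, log2(FPKM + 1) and log2(FPKM + 0.1), Abcg8 was also called lower at RF than LC. With log2(FPKM + 1) and no filter, Stard4 was not called higher there. DESeq2 and voom with sample weights gave 10 and 8 genes higher at RF than LC in place of 5. Each gave 1 lower at RF than AL in place of 0. Over all tested genes they gave 1610 and 1762 higher at RF than LC in place of 1452. They gave 61 and 30 lower at RF than AL in place of 5. Leaving out 1 library gave 2 to 3 higher and 3 to 7 lower at LC than AL, 3 to 9 higher and 3 to 4 lower at RF than LC, and 0 at RF against AL in both directions. The lowest of these were without AL replicate 3 (3 lower at LC) and RF replicate 2 (3 higher at RF than LC), and the highest were 7 lower at LC when AL replicate 2 was left out and 9 higher at RF than LC when LC replicate 2 was. Over all tested genes, the fits without 1 library called 959 to 2186 higher and 1151 to 2167 lower at LC than AL. At RF than LC they called 792 to 1604 higher and 643 to 1537 lower. The cause of these differences between fits was not tested.

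Of the 31 genes in 3 comparisons under 21 alternatives, 104 of 1950 fold changes changed sign, and in none was the gene called in either fit. Those reported above were at RF against AL unless stated. Ebp became 0.00685 with library totals, and 0.00987, 0.00995 and 0.00987 with the 3 FPKM settings. Abcg5 became 0.0917, 0.13, 0.13 and 0.13 in the same order, 0.00471 with the stricter filter and 0.0887 with voom. Soat2 became −0.0175 with DESeq2, −0.0153 with size factors by relative log expression, −0.00452 with voom and −0.0664 with the replicate block, and Tm7sf2 −0.0137 with voom. Without 1 library the ranges were −0.19 to 0.21 for Abcg5, −0.0572 to 0.0851 for Soat2, −0.18 to 0.47 for Tm7sf2 and, at LC against AL, −0.0378 to 0.36 for Abcg8.

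The replicate block gave 3 higher and 4 lower at LC than AL, 0 and 0 at RF against AL, and 5 and 3 at RF against LC. Over all tested genes it gave 1957 and 1901, 1 and 4, and 1613 and 1617 in the same order. Under it Tm7sf2 was not called at LC against AL (adjusted p = 0.0686), nor Acat2 at RF against LC (0.0551), and Npc2 was called at RF against LC. The deviations of same-numbered libraries from their group means correlated at −0.05 to 0.07 for LC with AL, −0.04 to 0.01 for RF with AL and 0.05 to 0.25 for RF with LC, and the numbers were not taken to pair the libraries, since not every pair exceeded 0.1. Of the RF and LC pairs the 2 highest were same-numbered (replicates 1 and 2), and whether these libraries share more than a number was not tested. The number of libraries and the spread of the synthesis enzymes between them, with a median SD of up to 0.85 on the log2 scale, limit their precision, and depth limits Soat1, with 13 to 28 counts per library.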
